A study of Mus musculus with 24 samples.

Results

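The 10 genes described here encode receptors of natural killer (NK) cells: Klra8, Klra9, Klra3, Klra7, Klrk1, Klrc1, Klrd1, Klre1, Klrb1c and Ncr1. They were chosen by name, as the rows of the deposited expression table that carry these symbols, out of 55202 genes in that table, and all 10 were among the 38019 genes tested. The values came from 24 RNA-seq libraries of grafted CT26.WT tumours. CT26.WT is a mouse colon carcinoma line that arose in a Balb/c mouse. All hosts were male and their genotype is given as wild-type, which the labels state for the NSG groups too.

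One group of NSG hosts and one of Balb/c hosts ate food with 0.86% methionine, and the other group of each host ate food with 0.172% methionine, for 3 to 4 weeks. NSG is an immunodeficient strain on a NOD background that carries the scid allele of Prkdc and a null allele of Il2rg, and it lacks mature T, B and NK cells while it keeps macrophages, dendritic cells and neutrophils. Balb/c hosts are immunocompetent and match the strain of the graft. The host comparison therefore joins immune deficiency, strain background and graft match, which cannot be told apart here. Since no label ties a library to an animal of its own, the p-values rest on the variation among tumours as deposited, which may be partly technical.

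NK cells read a balance of activating and inhibitory receptors. The lectin-like receptors of mouse NK cells lie together in the NK gene complex on chromosome 6, and among them the Ly49 receptors, encoded by the Klra genes, are the most variable. The number and identity of Klra genes differ between inbred strains. Most Ly49 receptors inhibit the cell when they bind MHC class I, while a few, such as Ly49H, activate it. Ly49H, the product of Klra8, recognises a cytomegalovirus protein in C57BL/6 mice, the strain of the mm10 reference, and the gene is missing from the Balb/c Ly49 cluster. Klra9 encodes Ly49I, Klra3 encodes Ly49C and Klra7 encodes Ly49G, which are inhibitory receptors in C57BL/6. Klrk1 encodes NKG2D, an activating receptor for stress-induced ligands that CD8 T cells also carry. Klrc1 (NKG2A) pairs with Klrd1 (CD94) to form an inhibitory receptor for the class Ib molecule Qa-1. Klre1 encodes a receptor that pairs with the products of Klri1 and Klri2. Klrb1c encodes NKR-P1C, whose NK1.1 epitope is a classical NK marker in C57BL/6 but is not detected by that antibody in Balb/c mice. Ncr1 encodes NKp46, an activating receptor of the immunoglobulin family on NK cells and some innate lymphoid cells, on chromosome 7.

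The 4 Klra genes are annotated close together on the minus strand of mm10 chromosome 6. Klra8 lies at chr6:130115226-130129898, Klra9 at chr6:130178675-130193112, Klra7 at chr6:130218605-130233322 and Klra3 at chr6:130323289-130337574. Their coding sequences are alike, which bears on how reads of one are told from reads of another. Klra8 shared 91.9% of its 801 coding bases with Klra9, 90.5% with Klra3 and 77.9% with Klra7, and Klra9 and Klra3 shared 95.9%. A 75-base window, the read length in the extraction protocol, shows how close they can be. The window at coding bases 257 to 331, the most alike of the aligned windows, is printed from the GENCODE transcripts in the direction of the transcript. Capitals mark bases unlike Klra8.
Klra8: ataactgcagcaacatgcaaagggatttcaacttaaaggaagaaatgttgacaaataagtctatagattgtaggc
Klra9: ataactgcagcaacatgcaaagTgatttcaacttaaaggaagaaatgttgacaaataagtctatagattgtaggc
Klra3: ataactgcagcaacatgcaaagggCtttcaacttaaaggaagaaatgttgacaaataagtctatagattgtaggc
Klra7: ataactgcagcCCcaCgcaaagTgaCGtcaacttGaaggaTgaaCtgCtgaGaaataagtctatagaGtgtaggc
In Klra8 this window is at chr6:130125140-130125214, in exon 4. Klra9 and Klra3 differed from Klra8 at 1 base each and Klra7 at 12.

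The least alike window, at coding bases 34 to 108, shows where the genes part. It lies in exon 2 of Klra8, at chr6:130128053-130128127 on the minus strand.
Klra8: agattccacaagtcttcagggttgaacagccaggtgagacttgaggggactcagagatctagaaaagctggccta
Klra9: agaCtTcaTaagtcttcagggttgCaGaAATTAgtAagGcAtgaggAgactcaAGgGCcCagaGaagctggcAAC
Klra3: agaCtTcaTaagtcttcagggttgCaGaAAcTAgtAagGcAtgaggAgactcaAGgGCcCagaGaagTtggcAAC
Klra7: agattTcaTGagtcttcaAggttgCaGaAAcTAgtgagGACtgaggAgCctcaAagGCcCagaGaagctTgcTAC
Klra9 and Klra3 differed from Klra8 at 23 bases here and Klra7 at 24. Over whole transcripts, 19.7% of the 75-base windows of Klra8 also occurred exactly in another gene's transcript, mostly in the pseudogene Klra14-ps. The share was 12.9% for Klra9, 6.79% for Klra3 and 6.99% for Klra7. Klrc1 shared 26.7% of its windows, nearly all with Klrc2, and Klrb1c shared 14.99%, mostly with Gm44511, which had 0 counts in every library. Klrk1, Klrd1, Klre1 and Ncr1 shared none. How reads with several matches were counted is not given in the sources used here, so counts of the Klra genes, of Klrc1 against Klrc2 and of Klrb1c are uncertain to that extent. NSG and Balb/c carry other Ly49 haplotypes than the mm10 reference, so a Klra count is the number of reads assigned to that C57BL/6 gene model and may come from a related strain-specific gene.

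Depth ran from 31339425 to 57162217 counts assigned to genes per library. In the group of Balb/c hosts on 0.86% methionine, libraries 19 and 23, and likewise 20 and 24, differed by little more than sampling noise and far less than the other 274 pairs of libraries. The mean of each such pair was used as 1 tumour. That group then had 4 tumours, and the other groups 6 each. The colon epithelium markers Krt8, Krt18, Krt20 and Cdx2 had counts in every library, while Epcam had 0 to 78 counts and Vil1 at most 5. In bulk tumours, fewer cells of a type and less RNA per cell cannot be told apart.

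The NK receptors separated into 3 patterns by host. Klra8 and Klra9 were higher in NSG hosts, Klra3 and Klra7 had counts in both hosts and were not called, and the remaining 6 members were higher in Balb/c hosts. At 0.86% methionine, 6 of 10 members were called higher in Balb/c hosts, against 2.05% of all genes tested, and 2 of 10 were called lower, against 0.484%. At 0.172% methionine, the same 6 were called higher, against 1.44% of genes, and the same 2 lower, against 0.652%. The members were chosen with earlier results of these data known, so these shares are a description and not a test of the set. A call is a limma adjusted p under 0.05, Benjamini-Hochberg over all tested genes. The median difference of the 10 members was 1.61 log2 units at 0.86% and 1.42 at 0.172%, beside a median of 0 over all genes in both. Log2 differences are on the deposited scale, which compresses the change of genes with few counts. Normalised counts are given for the levels.

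**Figure D1:**
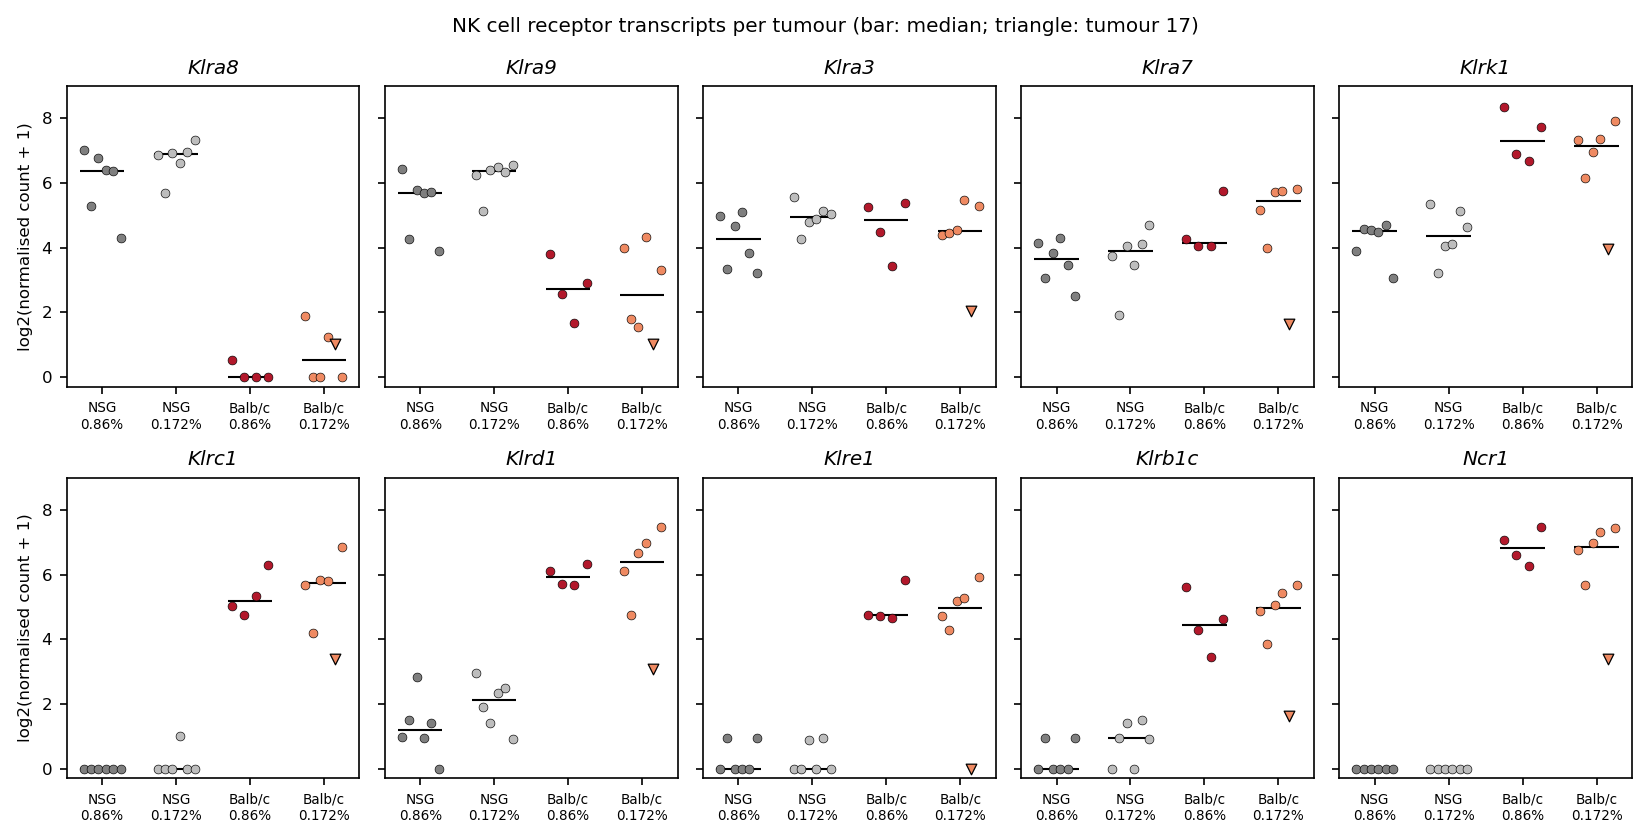
Normalised counts of the 10 NK cell receptor genes per tumour, on a log2(normalised count + 1) axis, in the 4 host and diet groups; each point is 1 tumour, the bar is the group median and the triangle is tumour 17. Klra8 sits at 18.5 or more in every NSG tumour and at 2.69 or less in every Balb/c tumour, and Ncr1 at 0 in every NSG tumour.

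Ncr1, which encodes the activating receptor NKp46, was higher in Balb/c hosts. It had 0 counts in all 12 NSG libraries. In Balb/c tumours on 0.86% methionine its normalised counts were 133.7, 95.4, 76.1 and 176.5, and on 0.172% they were 9.47 at the lowest, 116.0 at the median and 174.2 at the highest. The groups did not overlap on either diet. Against a floor of 3 counts per library, which is what a count of 0 allows, the group mean of Ncr1 was at least 43.2-fold higher in Balb/c hosts on 0.86% methionine and at least 36.9-fold higher on 0.172%. The differences were 3.13 ± 0.33 log2 units (SE; limma adjusted p = 7.09e-06) and 2.79 ± 0.29 (limma adjusted p = 7.72e-06).

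Klrk1, which encodes NKG2D, was present in both hosts. In NSG tumours it ran from 7.41 through a median of 21.9 to 24.8 normalised counts on 0.86% methionine, and from 8.30 through 20.2 to 39.5 on 0.172%. In Balb/c tumours it was 325.5, 117.1, 101.5 and 210.6 on 0.86%, and 14.7, 142.2 and 242.1 at the lowest, median and highest on 0.172%. All 4 Balb/c tumours on 0.86% methionine lay above every NSG tumour on that diet, and 5 of 6 did so on 0.172%, where tumour 17 fell within the NSG range. The ratio of means was 10.04 on 0.86% and 5.61 on 0.172%. The difference on 0.86% was 2.16 ± 0.38 log2 units (limma adjusted p = 0.00259). On 0.172% it was 1.48 ± 0.34 (limma adjusted p = 0.0240), and this call was lost with voom on the recovered counts (2.23; adjusted p = 0.0786) and when only the groups compared were fitted (1.48; adjusted p = 0.106). It was also lost without NSG tumour 2, 3 or 4 or without Balb/c tumour 13, 16 or 18, at limma adjusted p of 0.0547 to 0.0612 and differences of 1.28 to 1.45.

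**Figure D2:**
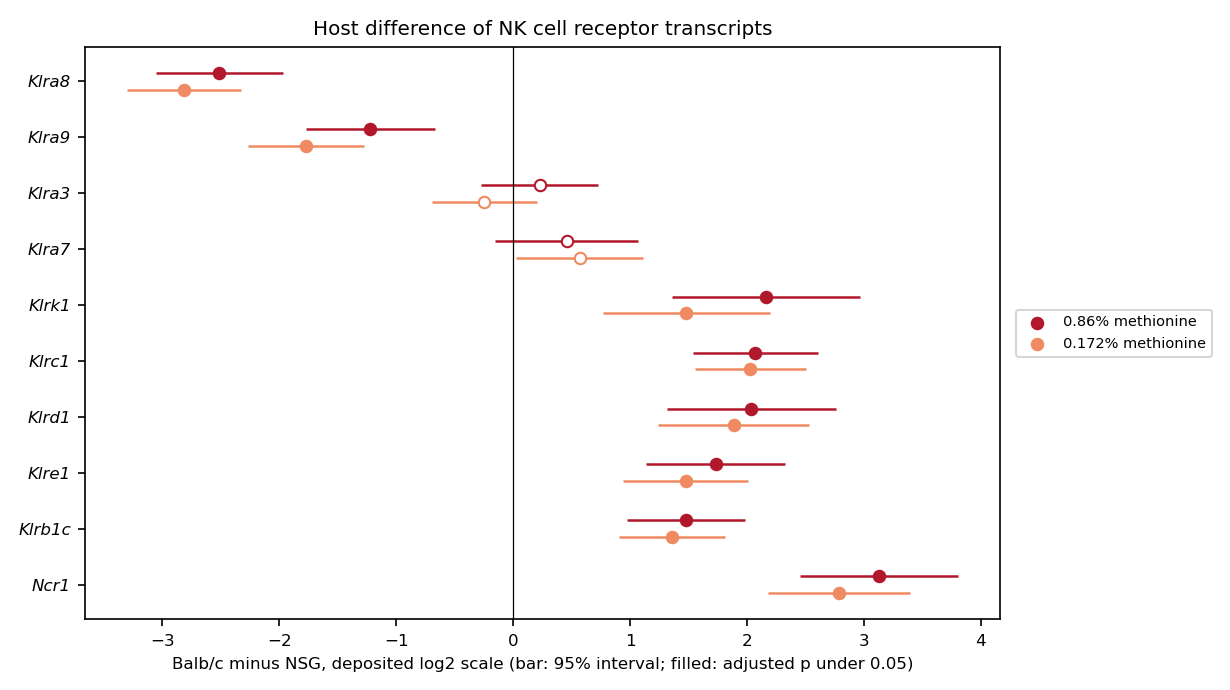
Difference between Balb/c and NSG tumours for each NK cell receptor gene on the deposited log2 scale at 0.86% (dark red) and 0.172% methionine (orange), as the estimate with its 95% interval; filled points have a limma adjusted p under 0.05. Ncr1 is highest at 3.13 and 2.79, Klra8 lowest at -2.51 and -2.81, and Klra3 and Klra7 are open on both diets.

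Klrc1 and Klrd1, whose products form the NKG2A and CD94 heterodimer, were both higher in Balb/c tumours. Klrc1 had 1 count over all 12 NSG libraries. Its normalised counts in Balb/c tumours were 31.9, 25.8, 39.7 and 78.2 on 0.86% methionine and 9.47, 52.0 and 114.1 at the lowest, median and highest on 0.172%. Every Balb/c tumour lay above every NSG tumour of its diet. On 0.86% the mean of the Balb/c tumours was at least 15.7-fold above the mean floor of 3 counts per NSG library. The log2 differences were 2.07 ± 0.26 (limma adjusted p = 4.03e-05) and 2.03 ± 0.23 (limma adjusted p = 1.11e-05). Klrd1 was low but present in NSG tumours, with 0 to 6 counts per library. In Balb/c tumours it reached 68.1, 51.5, 49.6 and 80.0 on 0.86%, and 7.37, 84.9 and 177.1 at the lowest, median and highest on 0.172%. The groups did not overlap. Pooled counts per group gave a ratio of 33.0 on 0.86%, with a 95% counting interval of 18.7 to 64.4, and of 26.2 on 0.172% (16.9 to 42.7). These intervals cover counting error only. The limma differences were 2.04 ± 0.35 (adjusted p = 0.00162) and 1.89 ± 0.31 (adjusted p = 0.00119).

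Klre1 and Klrb1c were close to 0 in NSG tumours. Each had at most 2 counts in any NSG library. Klre1 reached 26.2, 25.3, 24.3 and 56.1 in Balb/c tumours on 0.86% methionine, and 0, 30.3 and 60.02 at the lowest, median and highest on 0.172%, where tumour 17 had 0 counts and fell among the NSG tumours. Its log2 differences were 1.73 ± 0.29 (limma adjusted p = 0.00122) and 1.47 ± 0.26 (limma adjusted p = 0.00182). Klrb1c reached 48.0, 18.3, 9.93 and 23.9 on 0.86%, and 2.11, 30.2 and 50.2 on 0.172%. Its groups did not overlap on either diet, with differences of 1.48 ± 0.24 (limma adjusted p = 0.000966) and 1.36 ± 0.22 (limma adjusted p = 0.000613). In pooled counts Klrb1c was 88.3-fold higher in Balb/c hosts on 0.86% (24.1 to 734.5) and 29.97-fold on 0.172% (13.5 to 83.0). Its transcript shares windows with other genes, as given above, one of which, Klrb1a, had 1 to 170 counts in NSG libraries.

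Klra8 ran the other way. In NSG tumours it was 18.5, 82.7 and 130.3 normalised counts at the lowest, median and highest on 0.86% methionine, and 50.7, 117.7 and 159.1 on 0.172%. In Balb/c tumours it was 0.443, 0, 0 and 0 on 0.86%, and 0, 0.5263 and 2.69 on 0.172%. Every NSG library had at least 20 counts of Klra8 and no Balb/c library had more than 2. Counts pooled over all libraries gave a ratio of 482 on 0.86%, with a counting interval of 86.1 to 19079, and of 147 on 0.172% (57.3 to 542.7). The limma differences were -2.51 ± 0.26 (adjusted p = 4.06e-06) and -2.81 ± 0.24 (adjusted p = 2.04e-07).

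Klra9, which encodes the inhibitory receptor Ly49I, was also higher in NSG hosts. It was low but present in Balb/c hosts, with 1 to 20 counts per library. It ran through 13.9, 51.1 and 85.9 in NSG tumours on 0.86% methionine and 34.1, 82.1 and 93.0 on 0.172%. In Balb/c tumours it was 13.1, 4.90, 2.21 and 6.44 on 0.86%, and 1.05, 5.66 and 19.02 at the lowest, median and highest on 0.172%. The groups did not overlap, by a narrow gap on 0.86%, where the lowest NSG tumour had 13.9 and the highest Balb/c tumour 13.1. The limma differences were -1.22 ± 0.27 (adjusted p = 0.0111) and -1.77 ± 0.24 (adjusted p = 8.80e-05).

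Klra3 and Klra7 overlapped between hosts on both diets. Klra3 had medians of 18.9 and 30.2 in NSG tumours and 29.3 and 21.7 in Balb/c tumours on 0.86% and 0.172% methionine. Its difference was 0.23 ± 0.24 log2 units on 0.86%, with a 95% interval of -0.28 to 0.73 (limma adjusted p = 0.766), and -0.25 ± 0.22 on 0.172%, with an interval of -0.70 to 0.20 (limma adjusted p = 0.666). Klra7 had medians of 11.6 and 14.1 in NSG tumours and 16.9 and 43.2 in Balb/c tumours. Its difference was 0.46 ± 0.29 on 0.86%, with a 95% interval of -0.15 to 1.07 (limma adjusted p = 0.590). On 0.172% it was 0.57 ± 0.26, with an interval of 0.02 to 1.11 that leaves out 0 before adjustment (limma adjusted p = 0.344). On that diet 4 of 6 Balb/c tumours lay above every NSG tumour and 1 lay below every NSG tumour. Without tumour 17 the difference of Klra7 on 0.172% was 0.82 and passed the threshold (limma adjusted p = 0.0293).

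The Ly49 share of all member counts marks the change of pattern. The 4 Klra members made up 73.4% to 94.7% of the normalised counts of the 10 members in NSG tumours, and 8.39% to 16.8% in Balb/c tumours. Klra8 alone gave 40.8% to 54.1% of the Klra members' counts in NSG tumours. Per kilobase of annotated exon, Klra8 ranked first of the 10 in NSG tumours, with a median level of 87.3 normalised counts per kilobase, followed by Klra9 at 50.8, Klra3 at 22.1, Klra7 at 10.2, Klrk1 at 3.05 and Klrd1 at 1.36. In Balb/c tumours Ncr1 ranked first at 75.3, followed by Klrd1 at 53.3, Klrc1 at 22.5, Klra7 at 21.03, Klrk1 at 19.8, Klra3 at 17.7, Klrb1c at 8.80, Klre1 at 7.40, Klra9 at 4.43 and Klra8 at 0. The ranges of neighbours in both orders overlapped.

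The other Ly49 genes also differed among themselves. Klra14-ps had 7 to 82 counts in NSG libraries and 0 in every Balb/c library. Klra10 had 7 to 39 counts in NSG libraries and 1 to 10 in Balb/c libraries, and Klra11-ps had 5 to 43 and 0 to 2. Of the 9 other Ly49 genes listed, 1 was called lower in Balb/c hosts on 0.86% methionine and none higher. On 0.172%, 2 were called lower and 1 higher. Klra14-ps differed by -1.73 ± 0.22 log2 units on 0.86% (limma adjusted p = 3.91e-05) and -2.10 ± 0.20 on 0.172% (limma adjusted p = 3.28e-07). Klra10 differed by -1.11 ± 0.17 on 0.172% (limma adjusted p = 0.000325) and by -0.65 ± 0.19 on 0.86% (limma adjusted p = 0.0715). Klra1 was the one called higher, by 0.43 ± 0.11 on 0.172% (limma adjusted p = 0.0339), from 0 or 1 count per NSG library to at most 5 per Balb/c library. Klra2, which encodes Ly49B, a receptor of myeloid cells, was the most abundant Ly49 gene in both hosts, with 177 to 557 counts per NSG library and 248 to 879 per Balb/c library.

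**Figure D3:**
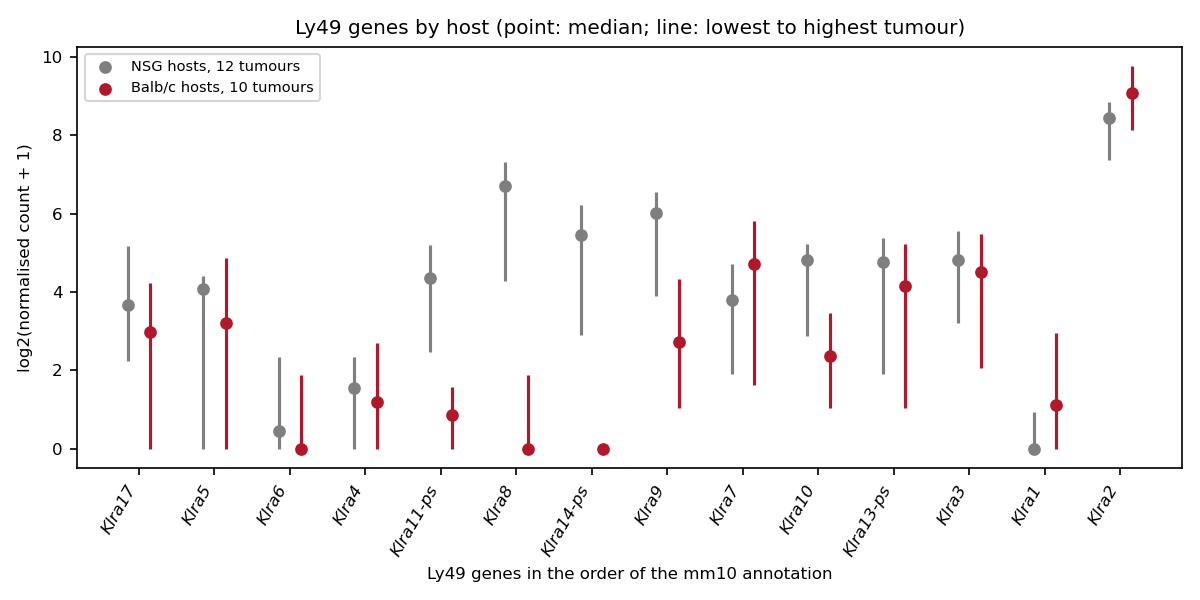
Ly49 genes and pseudogenes in the order of the mm10 annotation, by host, on a log2(normalised count + 1) axis; the point is the median over tumours and the line runs from the lowest to the highest tumour. Klra7, Klra1 and Klra2 have higher medians in Balb/c hosts and the other genes drawn have higher medians in NSG hosts, with Klra8 at 102.8 against 0, and Klra14-ps stays at 0 in all 10 Balb/c tumours.

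Across the 12 NSG tumours, several Klra genes of the cluster varied with Klra8. Spearman's rho with Klra8, given as a description, was 0.909 for Klra14-ps, 0.881 for Klra9 and for Klra5, 0.860 for Klra10, 0.825 for Klra7 and 0.734 for Klra3. It was 0.091 for Klra2. Shared sequence links some of these counts. Klra14-ps holds 16.03% of the 75-base windows of Klra8, and Klra9 and Klra10 share further windows with it. The part of shared reads in these values was not tested.

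The transcripts whose patterns were most like Klra8 over the 12 NSG tumours, among 15021 genes compared, were Arfrp1 (rho 0.937), Il15ra and Sfrp1 (both 0.881), Ccl8 (0.867) and, tied at 0.860, Bin1, Hsph1, Sema3g and Tbc1d8. The top 1% of genes reached at least 0.713. Il15ra encodes the chain that presents interleukin-15 and Ccl8 a monocyte chemokine. Il15ra ran from 94.9 to 271.7 normalised counts in NSG tumours and Ccl8 from 343.5 to 2843.

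Genes that work with the members were tested from lists, beside a median of 0 over all genes in both host comparisons. Of 10 other receptors of the NK gene complex, 6 were called higher in Balb/c hosts on each diet and none lower, with a median of 1.23 and 1.16 log2 units. Klri1 and Klri2, the partners of Klre1, were among them, by 1.29 ± 0.19 and 1.97 ± 0.25 on 0.86% (limma adjusted p = 0.000243 and 5.81e-05). Klrb1f rose by 1.40 ± 0.17 (limma adjusted p = 1.99e-05), and Klrc2, the activating counterpart of Klrc1, by 1.70 ± 0.23 (limma adjusted p = 0.000115). Klrc2 had at most 1 count per NSG library and 4 to 65 per Balb/c library, and it shares sequence with Klrc1 as given above.

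Of 14 adaptors and signalling proteins, 12 were called higher in Balb/c hosts on 0.86% methionine and 8 on 0.172%, and none lower, with medians of 1.09 and 0.69 log2 units. Hcst, which encodes DAP10, the signalling partner of NKG2D, rose by 1.16 ± 0.18 log2 units on 0.86% (limma adjusted p = 0.000378). Cd247, the zeta chain used by NKp46 and by the T cell receptor, rose by 1.46 ± 0.19 (limma adjusted p = 6.54e-05). Tyrobp (DAP12), the partner of activating Ly49 receptors, was far from 0 in NSG tumours, at 1027 to 1995 normalised counts; myeloid cells also use it.

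Of 10 ligands of these receptors, 2 were called higher in Balb/c hosts on 0.86% methionine and 4 on 0.172%, and none lower, with medians of 0.39 and 0.43. Raet1e, a ligand of NKG2D, rose by 1.03 ± 0.17 log2 units on 0.86% (limma adjusted p = 0.000689), from 27.8 to 57.4 normalised counts in NSG tumours to 102.1 to 137.6 in Balb/c tumours. Its annotated exons overlap those of Raet1d and H60b, so its count may depend on how shared reads were assigned. H2-T23, which encodes the Qa-1 heavy chain read by CD94 and NKG2A, rose by 0.71 ± 0.17 on 0.172% (limma adjusted p = 0.0273) and differed by 0.53 ± 0.19 on 0.86% (limma adjusted p = 0.191). Among other NK receptors, 9 of 10 were called higher on 0.86% and 5 of 10 on 0.172%, with Cd96 up by 1.88 ± 0.37 and 2.21 ± 0.33 (limma adjusted p = 0.00591 and 0.000497). Among lineage factors and cytokine receptors, 7 of 16 were called higher on each diet, with medians of 0.63 and 0.60. Tbx21, which encodes T-bet, had 0 counts in every NSG library and rose by 1.62 ± 0.21 on 0.86% (limma adjusted p = 4.52e-05). Il2rb, the interleukin-15 receptor beta chain, rose by 4.56 ± 0.55 (limma adjusted p = 9.28e-05).

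Markers of T cells moved with host as well. Of 14 T cell markers, 11 were called higher in Balb/c hosts on 0.86% methionine and 12 on 0.172%, with medians of 1.37 and 1.31 log2 units. Their summed level was 285 to 1502 normalised counts in NSG tumours and 888 to 5276 in Balb/c tumours, and Cd3e and Cd3d had at most 1 count in any NSG library. Of 12 effector genes, among them the granzymes and perforin that NK and T cells share, 9 and 8 were called higher, with medians of 1.65 and 1.33. Of 7 innate lymphoid markers, 2 were called higher on each diet. They were Itga1 (1.012 ± 0.19 and 0.98 ± 0.17; limma adjusted p = 0.00275 and 0.00126) on both, Il7r on 0.86% (0.92 ± 0.23; limma adjusted p = 0.0287) and Cxcr6 on 0.172% (1.19 ± 0.24; limma adjusted p = 0.00783). Their summed level was 3388 to 9766 normalised counts in NSG tumours and 2720 to 21540 in Balb/c tumours. On each diet, 1 of 8 macrophage markers (C1qc), 1 of 6 mast cell markers (Kit), 1 of 6 conventional dendritic markers (Itgax) and 0 of 5 B cell markers were called, all higher in Balb/c hosts. Of 8 neutrophil markers, 2 (Csf3r and Mmp8) were called higher on 0.86% and 0 on 0.172%, and of 6 plasmacytoid dendritic markers 1 (Irf8) and 0. Of 7 colon epithelium markers, 0 were called on 0.86% and 1 (Cdh1) on 0.172%. The counts of called markers were not compared between the diets. For each gene the difference of the diet effects between hosts was tested, and 0 of 38019 genes were called. Several members, Klrk1, Klrc1 and Klrd1 among them, are also carried by CD8 T cells. The part of T cells in their host difference, and that of the other cell types in the difference of Ncr1 and the other members, was not tested.

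Within Balb/c tumours most members varied together. Over 10 tumours and 17 correlations in the family, Klre1 followed Ncr1 most closely, with Pearson's r = 0.961 (permutation p = 1e-05, the smallest that 100000 permutations can give, adjusted 0.00017) and Spearman's rho = 0.976 (permutation p = 1e-05, adjusted 0.00017). Klrk1 followed with r = 0.934 and rho = 0.903 (permutation p = 0.00039 and 0.00092, adjusted 0.00184 and 0.00313). Klrd1 had r = 0.931 and rho = 0.879 (permutation p = 9e-05 and 0.00161, adjusted 0.000765 and 0.00456). The values of r for Klra3, Klra7, Klrb1c and Klrc1 ran from 0.858 to 0.905, with adjusted permutation p of at most 0.00192. Klra9 was the loosest, with r = 0.657 and rho = 0.624 (permutation p = 0.027 and 0.0593, adjusted 0.0306 and 0.0593). Leaving out tumours 17 and 14, the farthest from the median of Ncr1, gave r of 0.857 for Klre1, 0.694 for Klrk1, 0.783 for Klrd1 and 0.459 for Klra9. Within the 6 tumours on 0.172% methionine, r was 0.690 for Klra9 and 0.924 to 0.997 for the other 7. These 6 include tumour 17, the lowest for Ncr1. Without tumour 17, over the remaining Balb/c tumours of both diets, r was 0.566 for Klra9 and 0.786 to 0.875 for the other 7. The group on 0.86% held too few tumours for its own value. Klra8 was left out, since it was at or near 0 in Balb/c tumours.

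**Figure D4:**
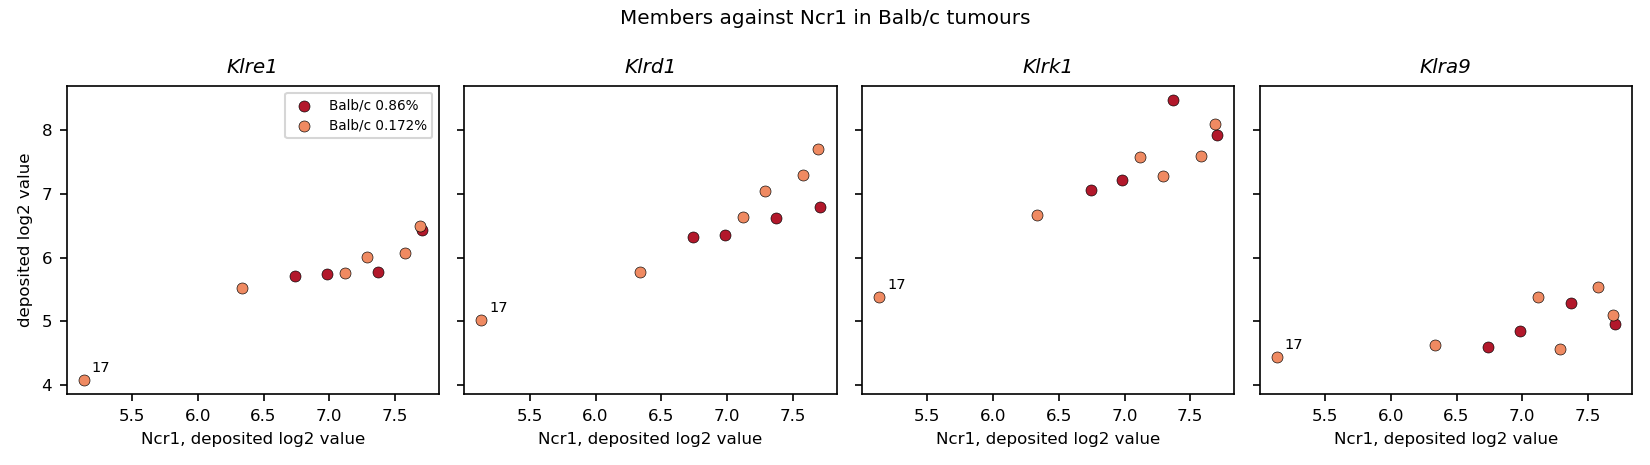
Deposited log2 values of Klre1, Klrd1, Klrk1 and Klra9 (y axis) against Ncr1 (x axis) in the 10 Balb/c tumours, coloured by diet, with tumour 17 labelled. Klre1 follows Ncr1 with r = 0.961 and Klra9 with r = 0.657, and tumour 17 is the lowest point in every panel.

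Pearson's r with the T cell marker Cd3e was lower than that with Ncr1 for all 8 members compared, while Spearman's rho was higher for Klra9, Klrk1 and Klrb1c, and the difference between both references was not tested. The values of r with Cd3e ran from 0.638 for Klra9 to 0.828 for Klrk1, and that of Ncr1 itself was 0.745 (permutation p = 0.0116, adjusted 0.0164) with rho = 0.855 (permutation p = 0.00316, adjusted 0.00671). Klrk1 had rho = 0.927 with Cd3e (permutation p = 0.00044, adjusted 0.00278). Leaving out tumours 18 and 17, the farthest from the median of Cd3e, gave r of 0.871 for Klrk1, 0.659 for Ncr1 and 0.333 for Klra7. Among the genes most like Ncr1 over the 10 Balb/c tumours, of 15178 compared, were Cd69 (rho 0.964), an early activation marker, Pdcd1 (0.927), which encodes PD-1, and, tied at 0.915, Arhgap20os, Dapk2 and Sh2d1b1. Sh2d1b1 encodes EAT-2, a signalling adaptor of NK cells. The top 1% of genes reached at least 0.758.

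Tumour 17, from a Balb/c host on 0.172% methionine, stood apart in these genes. It was the lowest Balb/c tumour for 9 of 10 members, Klra8 being the exception. Ncr1 was 9.47 there, while the other 9 Balb/c tumours ran from 50.7 to 176.5. Klrk1 was 14.7 there, while the others ran from 70.5 to 325.5. Its T cell markers summed to 888 against 1489 to 5276, and its effector genes to 442 against 1680 to 10487. Its macrophage markers, at 36461, lay within the range of the others, 27538 to 66482. Its lineage factors and cytokine receptors summed to 17906 against 9437 to 16162, and its other NK complex receptors to 690.5 against 247.2 to 597.9. Tumour 17 was the highest Balb/c tumour in both sums. Klrb1a, in the list of other NK complex receptors, had 11 to 629 counts per Balb/c library. This gene alone can therefore make up most of such a sum. The colon epithelium markers of tumour 17 summed to 35251, above 8 of the other 9 tumours.

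Diet did not move the members past the threshold in either host. In Balb/c hosts, 0 of 10 members were called higher on 0.172% than on 0.86% methionine, where 0% of all genes were called, and 0 lower, where 0.00263% were. In NSG hosts, 0 of 10 were called higher, against 0% of all genes, and 0 lower, against 0.00526%. For the difference between the diet effects of both hosts, 0 members and 0% of all genes were called in either direction. Without the adjustment, the limma p lay under 0.05 for 0 members in Balb/c hosts, for 1 in NSG hosts and for 0 in the difference. Over all 38019 genes it did so for 2843, 2554 and 2447, so these counts do not set the members apart. None of the genes in the lists named above was called for diet in either host. These comparisons share tumours with the host comparisons.

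In Balb/c hosts the diet difference, 0.172% minus 0.86%, was -0.34 ± 0.33 log2 units for Ncr1, with a 95% interval of -1.02 to 0.33 (limma adjusted p = 0.845). Klrk1 had the largest estimate, -0.57 ± 0.38, with an interval of -1.37 to 0.24 (limma adjusted p = 0.823). The other 8 estimates lay between -0.26 and 0.18. Without tumour 17 the difference was 0.0014 for Ncr1, -0.22 for Klrk1 and 0.37 for Klrd1. The intervals differed by member, from -0.61 to 0.40 for Klra3 and -0.48 to 0.54 for Klrb1c to the wider ones of Klrk1 and Ncr1. A diet effect inside a member's own interval is not excluded by these groups. The intervals are not adjusted for the number of genes tested.

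In NSG hosts, the 3 most abundant Klra members were higher on 0.172% methionine in the estimates but not past the threshold. Klra9 differed by 0.57 ± 0.24 log2 units, with an interval of 0.08 to 1.07 (limma unadjusted p = 0.0254, adjusted p = 0.731). Klra8 differed by 0.49 ± 0.24 (limma unadjusted p = 0.0501, adjusted p = 0.744), and Klra3 by 0.37 ± 0.22 (limma adjusted p = 0.795). The groups overlapped for all 3. Ncr1 was at 0 counts in both NSG groups, and the remaining 6 estimates lay between -0.0029 and 0.21. The difference of the diet effects between hosts was -0.55 ± 0.36 for Klra9 and -0.68 ± 0.52 for Klrk1 (limma adjusted p = 0.821 for both).

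**Figure D5:**
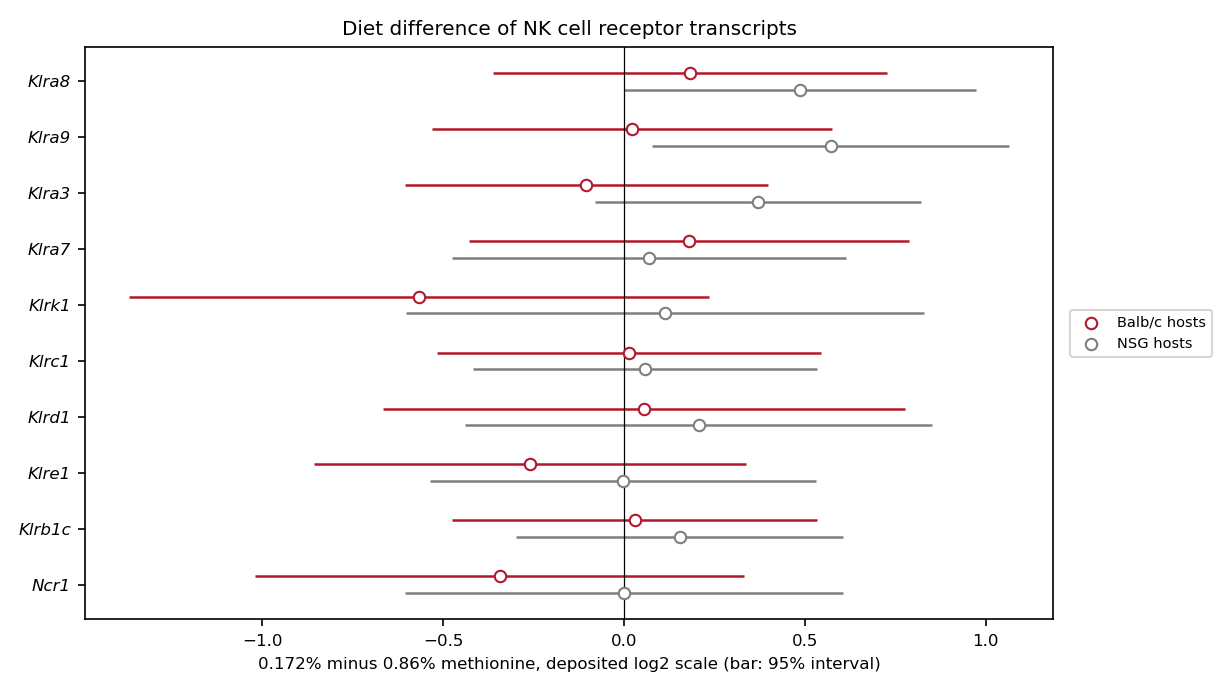
Difference between 0.172% and 0.86% methionine for each NK cell receptor gene on the deposited log2 scale in Balb/c (dark red) and NSG hosts (grey), as the estimate with its 95% interval; open points have a limma adjusted p of 0.05 or more. Estimates run from -0.57 for Klrk1 in Balb/c hosts to 0.57 for Klra9 in NSG hosts.

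Promoters of the members were read for motifs as a description. The 6 members that were higher in Balb/c hosts are a group by that host difference only. Within Balb/c tumours Klra3 and Klra7 also varied with Ncr1 (r = 0.905 and 0.894), while Klra9 did so more loosely (r = 0.657). The windows, from RefSeq on GRCm38.p6, span 250 bases before to 50 after a gene's start, and 9 of 10 members have one. Klrd1, which was higher in Balb/c hosts, has none. The RUNX motif TGTGGT, on either strand, occurred in a window of 5 of the 9, namely Ncr1, Klrk1, Klrc1, Klre1 and Klrb1c, and in none of the 4 Klra members. Some members have several windows, and 6 of 13 member windows hold the motif. Among these, the Ncr1 windows chr7:4337465-4337764 and chr7:4337474-4337773 overlap and hold the same matches. Of 32851 promoter windows in the table, 16.8% hold it. The T-box motif GGTGTGA was in no member window (3.98% of all windows) and neither was the ETS motif CCGGAAG (8.86%). RUNX factors, T-bet and Eomes, and ETS factors act in NK cell development. The windows of Ncr1 (chr7:4337465-4337764, plus strand), Klrk1 (chr6:129623815-129624114, minus strand) and Klra8 (chr6:130129849-130130148, minus strand) show a window with the motif on both strands, one with a single match and one with none. Capitals mark the motif or its reverse complement.
Ncr1: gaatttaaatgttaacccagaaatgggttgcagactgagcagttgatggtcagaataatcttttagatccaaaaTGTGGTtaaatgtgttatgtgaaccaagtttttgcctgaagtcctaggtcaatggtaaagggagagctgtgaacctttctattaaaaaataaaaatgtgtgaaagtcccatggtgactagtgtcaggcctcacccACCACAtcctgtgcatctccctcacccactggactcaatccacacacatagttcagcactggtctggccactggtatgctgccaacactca
Klrk1: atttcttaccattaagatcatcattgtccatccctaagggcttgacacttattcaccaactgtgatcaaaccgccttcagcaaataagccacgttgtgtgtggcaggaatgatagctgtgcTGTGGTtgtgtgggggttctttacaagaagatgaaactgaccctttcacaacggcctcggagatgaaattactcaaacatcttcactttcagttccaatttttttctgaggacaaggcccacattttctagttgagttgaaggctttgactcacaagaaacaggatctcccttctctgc
Klra8: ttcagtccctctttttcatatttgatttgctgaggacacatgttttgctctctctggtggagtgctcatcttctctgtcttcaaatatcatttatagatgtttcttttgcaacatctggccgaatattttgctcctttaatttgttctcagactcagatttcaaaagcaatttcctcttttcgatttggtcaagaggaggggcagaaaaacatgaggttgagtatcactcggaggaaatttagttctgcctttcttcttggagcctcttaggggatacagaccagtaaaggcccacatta
In Ncr1 the matches begin 176 and 41 bases before the start site, and in Klrk1 the match begins 129 bases before it. A match is a description of these letters, not of binding.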

How the data were processed

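RNA of 24 grafts was sequenced. STAR, featureCounts, DESeq2 and mm10 are named in the authors' processing, per the submitters' processing notes. Nothing on their versions, the annotation or the treatment of reads with several matches is given in the sources used here. Strandedness and the way RNA was selected are unsettled, because the labels name a stranded ribosomal-depletion kit in one place and poly(A) enrichment in another. The authors deposited log2 values that look like a variance-stabilising transformation, in which 4.07, the floor, stands for a count of 0. Undoing this transformation returned whole counts (tolerance 0.01) for 100% of values under 1000. Depths of 31339425 to 57162217 per library and the normalised counts come from them. Left out were 26 rows whose names had become dates.

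Differences were tested on the log2 values with limma 3.58.1 in R 4.3.3 (trend and robust options, all 4 groups sharing 1 spread, 2-sided, Benjamini-Hochberg over 38019 genes with a value above the floor in any tumour, threshold 0.05). The procedure was also run on simulated data, in which only genes above a minimum mean count were changed. Genes at 0 in all tumours of 1 host were not modelled there, and the outcome is not given here. Libraries 19 and 23, and 20 and 24, were averaged because their chi-square per gene was under 1.5, while that of all other pairs was 2.42 or more. Exact counting intervals (95%) compare counts pooled over all libraries of a group, without averaging these pairs. Correlations used 100000 permutations with scipy 1.17.1. Coding sequences were aligned with MAFFT 7.526, and gene models came from GENCODE mouse release 21. All members are named. Listed genes were named by smallest adjusted p, at most 4 per list, and a few more (such as Tyrobp, Klra11-ps, Klra5 and Klrb1a) were picked with their values in view. Members and lists were chosen with earlier results of these data known. Alternatives included other scalings, filters, pseudocounts, voom and leaving out each tumour. A gene that the likeness rule named is not reported here.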

Additional observations from a re-analysis of the deposited data

Results flagged for a closer look

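Dixon's ratio on the deposited log2 values was used to look for an outlying tumour in 37 groups, each of 1 member in 1 group of tumours. Of these, 5 held one. The groups share tumours and some lie mostly at the floor, so this number is not set against a share expected by chance. Klra7 and Klre1 were both high in tumour 22 of the Balb/c hosts on 0.86% methionine, at 52.4 and 56.1 normalised counts, with gap-to-range ratios of 0.882 and 0.922. Klra9 was low in tumour 2 of the NSG hosts on 0.172% methionine, at 34.1 normalised counts, with a ratio of 0.773. The other 2 rest on 1 count each, namely Klra8 in the Balb/c tumour averaged from libraries 19 and 23, and Klrc1 in tumour 4 of the NSG hosts on 0.172% methionine. Every other tumour of those groups had 0 counts, which fixes the ratio at 1.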

How the results depend on the processing

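On 0.86% methionine all 10 members kept their direction and their side of the threshold under 11 other settings and without each of the 22 tumours, and 6 members stayed called higher and 2 lower. On 0.172% the number called higher ran from 5 to 7 without each tumour, and Klrk1 and Klra7 changed as the report gives. Over all genes, calls for host under these 11 settings ranged from 612 to 1824 on 0.86% (963 in the reported fit) and from 643 to 1879 on 0.172% (796). Without each tumour they ranged from 526 to 1157 on 0.86% and from 513 to 1115 on 0.172%. On 0.86% they moved by over 1.5 times without Balb/c libraries 19 and 23, counted as 1 tumour (526), or tumour 22 (620), and on 0.172% without NSG tumour 4 (513). Centring each library on its median moved the median of all genes by -0.14, -0.18, -0.15, -0.11 and -0.04 log2 units in the host comparisons on 0.86% and 0.172%, the diet comparisons in Balb/c and NSG hosts and their difference.

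No diet difference of a member was called under any setting, and several small ones changed sign; the cause was not tested. In Balb/c hosts the estimates became negative for Klra9 with 24 separate libraries (-0.026), centring (-0.13), log2(normalised count + 1) (-0.071) and voom (-0.26). Those of Klrc1 did so with centring (-0.14), pseudocounts of 1 (-0.076) and 10 (-0.0042) and library weights (-0.13). Those of Klrd1 did so with centring (-0.096), a pseudocount of 1 (-0.11) and voom (-0.11), and those of Klrb1c with 24 libraries (-0.049), centring (-0.12), a pseudocount of 1 (-0.072) and voom (-0.18). In NSG hosts centring gave -0.041 for Klra7 and -0.051 for Klrc1, and Klre1 became 0.0037 with quantile normalisation and 0.031 with library weights. The difference of the diet effects became 0.57 for Klra8 with voom, -0.096 for Klra7 and 0.030 for Klrb1c with library weights, and 0.054 for Klrc1 with 24 libraries.

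Without each tumour in turn, the diet difference in Balb/c hosts ranged from -0.098 to 0.14 for Klra9, -0.30 to 0.085 for Klra3, -0.19 to 0.22 for Klrc1, -0.17 to 0.37 for Klrd1, -0.43 to 0.056 for Klre1, -0.14 to 0.25 for Klrb1c and -0.51 to 0.0014 for Ncr1. In NSG hosts it ranged from -0.022 to 0.20 for Klra7, 0 to 0.071 for Klrc1 and -0.048 to 0.042 for Klre1. The difference of the diet effects ranged from -0.015 to 0.37 for Klra7, -0.25 to 0.16 for Klrc1, -0.38 to 0.16 for Klrd1, -0.43 to 0.059 for Klre1, -0.29 to 0.099 for Klrb1c and -0.51 to 0.0014 for Ncr1.

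With 50-base windows the shared share rose to 33.1% for Klra8, 32.4% for Klra9, 21.5% for Klra3 and 14.7% for Klra7. On the scale of log2(normalised count + 10), chosen after seeing the data, the correlation of Klra9 with Cd3e lost its call (r = 0.633, permutation adjusted p = 0.0509). No paired analysis was possible because the libraries are numbered 1 to 24 and groups share no number. Members with few counts in a host, such as Klre1 and Klrb1c in NSG tumours, are limited by depth.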
